A study of Arabidopsis thaliana with 12 samples.

Results

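A group of 5 stress-protection genes was followed in Arabidopsis thaliana seeds given water or gibberellin: the dehydrin genes COR47 (AT1G20440) and LTI30 (AT3G50970), LEA4-5 (AT5G06760), and AT3G53040 and AT3G17520, which are counted among the LEA genes by locus because the annotation gives them no other name. They are 5 of the 13350 genes with a probe set of their own on the array. The genes were chosen by their measured signals in gibberellin against water, so that comparison is given for them as a description, with no test. Each is read from 1 probe set that the platform annotation assigns to it alone.

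LEA (late embryogenesis abundant) proteins are very hydrophilic proteins that build up as seeds mature and dry, and they are known to protect membranes and other proteins during water loss. Dehydrins are a LEA group marked by a repeated lysine-rich segment, and many, COR47 and LTI30 among them, are also induced by cold, drought and abscisic acid in leaves. Abscisic acid promotes the expression of many LEA genes in the maturing seed, and their transcripts lie stored in the dry seed; gibberellin promotes germination.

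The series holds 12 one-colour Affymetrix arrays of total RNA from seeds in the Ler background (stock N3742). Water or 5 µM gibberellin was given for 3, 6 or 9 h, which makes 6 groups of 2 arrays, lettered A and B. The labels give neither the genotype beyond the background nor the form of gibberellin. They do not say whether A and B came from separate seed batches, so errors and p-values cover only the scatter among these 12 arrays, which may be technical.

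Values are MAS5 signals, a linear brightness per probe set scaled to 1 mean for all arrays. Of 22746 probe sets, 15766 were tested, those above a signal of 16 on at least 2 arrays. The correlation of log2 signals between A and B lay between 0.913 and 0.935. Precision is limited by having 2 arrays in a group. The A arrays at 3 and 6 h had their highest signal between 3308 and 3787, and the other 8 arrays between 6511 and 9143. All 4 arrays of the 9 h comparison belong to the latter, and at 3 and 6 h each letter pairs arrays of the same kind. None of the 10 seed storage markers on a fixed list has a probe set of its own, so the tissue was not checked with them. Of the 4 green-leaf markers, RCA (133 to 485) and LHCB4.1 (161 to 381) could be read. In a bulk sample, fewer cells of a type and less RNA per cell cannot be told apart.

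COR47 was the dehydrin with higher signal under gibberellin. In water its signals on arrays A and B were 63.0 and 42.7 at 3 h, 32.6 and 29.5 at 6 h, and 43.2 and 35.9 at 9 h. In gibberellin they were 135 and 41.3 at 3 h, 205 and 129 at 6 h, and 385 and 242 at 9 h. At 6 and 9 h both gibberellin arrays lay above every water array of any time, whereas at 3 h the groups overlapped. The log2 difference between gibberellin and water was 0.53 ± 0.468 (SE of the model) at 3 h, 2.39 ± 0.468 at 6 h and 2.95 ± 0.468 at 9 h, the last a 7.74-fold difference. At 3 h the A arrays differed by 1.1 and the B arrays by -0.05, so the early value rests on the gibberellin array A, and without it the difference was -0.33. Ranked by mean log2 signal, the order was gibberellin at 9, 6 and 3 h, then water at 3, 9 and 6 h. Of the neighbours in this order, only gibberellin at 9 h against 6 h and water at 9 h against 6 h did not overlap.

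LTI30, the other dehydrin of the set, was higher with gibberellin at 3 h and lower at 9 h. Its water signals on A and B were 255 and 305 at 3 h, 191 and 276 at 6 h, and 267 and 380 at 9 h. With gibberellin they were 444 and 485 at 3 h, 182 and 380 at 6 h, and 107 and 156 at 9 h. The 3 h gibberellin arrays were the highest of all 12 and the 9 h gibberellin arrays the lowest, while the 6 h groups overlapped. The log2 difference from water was 0.73 ± 0.334 at 3 h, 0.20 ± 0.334 at 6 h and -1.30 ± 0.334 at 9 h (SE). The same-letter differences were 0.80 (A) and 0.67 (B) at 3 h, and -1.32 (A) and -1.29 (B) at 9 h. At 6 h they were -0.07 and 0.46, and the sign of that value changes when water array A or gibberellin array B is left out. From 3 h to 9 h in gibberellin the log2 difference was -1.85 ± 0.334.

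**Figure D1:**
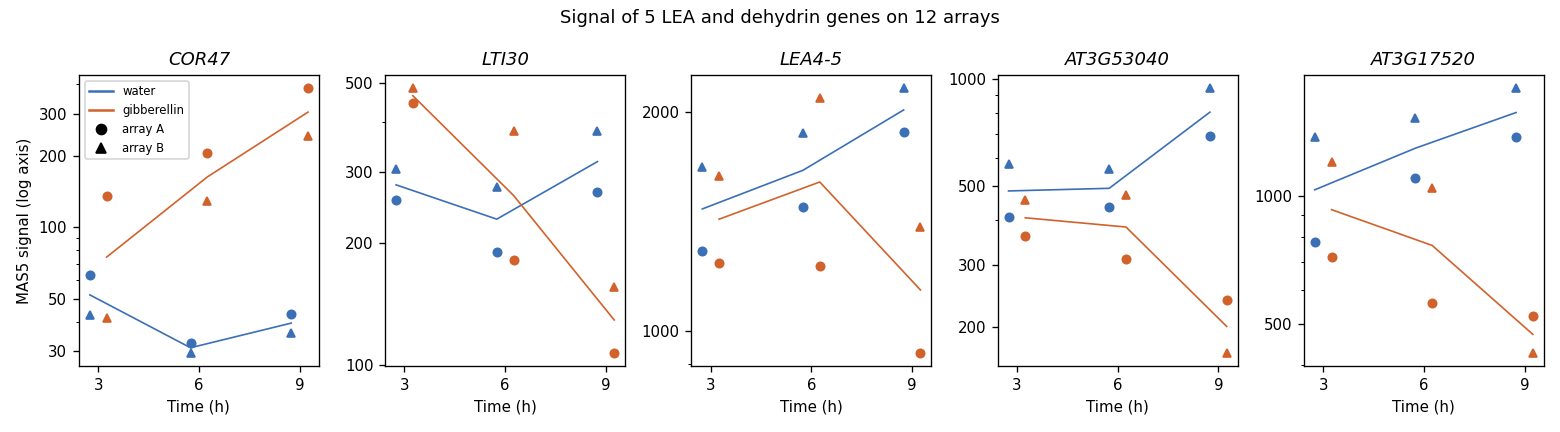
MAS5 signal (log axis, a separate scale for each gene) against hours of treatment; circles are A arrays, triangles B arrays and lines join the geometric means of the 2 arrays. COR47 reached 385 and 242 in gibberellin at 9 h against 43.2 and 35.9 in water, and the other 4 genes were lower in gibberellin than in water at that time.

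LEA4-5, listed in the LEA_1 group of the family with AtLEA4-1 and LEA18 (also called AtLEA4-2), had the smallest difference of the set at 9 h. Its water signals on A and B were 1290 and 1678 at 3 h, 1480 and 1868 at 6 h, and 1878 and 2156 at 9 h. The gibberellin signals were 1242 and 1634 at 3 h, 1227 and 2093 at 6 h, and 933 and 1390 at 9 h. Only at 9 h did the groups not overlap. The log2 differences were -0.05 ± 0.294 at 3 h, -0.05 ± 0.294 at 6 h and -0.82 ± 0.294 at 9 h (SE), a 1.77-fold lower signal at the last time. At 3 and 6 h the sign turned when 1 of the arrays was left out.

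AT3G53040 showed the lowest ratio of gibberellin to water among the 5 genes. In water, arrays A and B read 407 and 574 at 3 h, 434 and 556 at 6 h, and 688 and 941 at 9 h. In gibberellin they read 361 and 456 at 3 h, 311 and 470 at 6 h, and 239 and 169 at 9 h. The 9 h gibberellin arrays were the lowest of the 12 and the 9 h water arrays the highest. The log2 difference was -0.25 ± 0.279 at 3 h, -0.36 ± 0.279 at 6 h and -2.0 ± 0.279 at 9 h (SE), a 4.01-fold lower signal at 9 h.

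AT3G17520 followed a similar course, with a difference already visible at 6 h. Its water signals were 779 and 1372 at 3 h, 1102 and 1521 at 6 h, and 1376 and 1792 at 9 h for A and B. In gibberellin they were 719 and 1199 at 3 h, 560 and 1045 at 6 h, and 523 and 428 at 9 h. The groups overlapped at 3 h and not at 6 or 9 h. The log2 difference was -0.15 ± 0.362 at 3 h (above 0 without water array B or gibberellin array A), -0.76 ± 0.362 at 6 h and -1.73 ± 0.362 at 9 h (SE). For both loci the order of the groups was water at 9, 6 and 3 h, then gibberellin at 3, 6 and 9 h. Within that order most neighbours overlapped: the exceptions were gibberellin at 6 h against 9 h for both, and water at 9 h against 6 h for AT3G53040.

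Side by side, 1 of the 5 genes at 3 h, 2 at 6 h and 5 at 9 h had gibberellin and water arrays that did not overlap. Over all tested probe sets that share was 30.3%, 41.9% and 50.4%, and since these signals chose the genes nothing is read from the count. At 9 h COR47 was higher and the other 4 were lower, with a median log2 difference of -1.30. That median comes from the signals that chose the genes, so it is not set against that of all probe sets. The 2 dehydrins differed most at the last time: at 3 h LTI30 lay above water on both letters and COR47 overlapped it, and at 9 h the log2 difference was 2.95 for COR47 and -1.30 for LTI30.

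**Figure D2:**
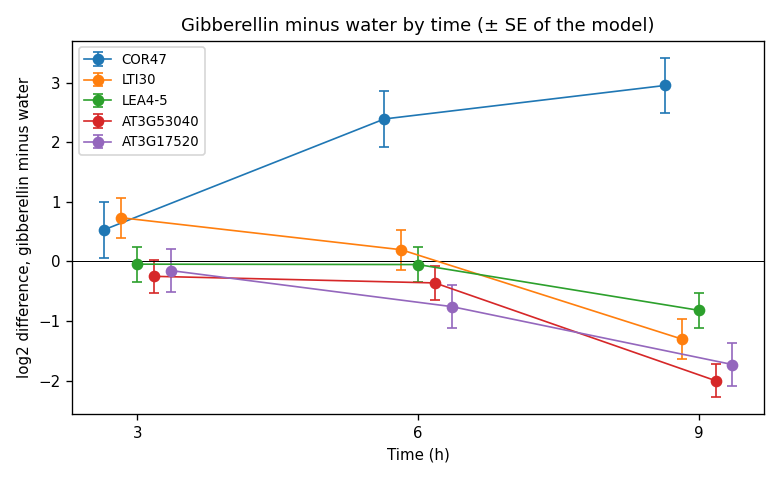
log2 difference between gibberellin and water (2 arrays each) at 3, 6 and 9 h, with bars of 1 SE from the model; points are shifted sideways for legibility. COR47 goes from 0.53 to 2.95, LTI30 from 0.73 to -1.30, and the remaining 3 genes end between -0.82 and -2.0.

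Time in water alone was not the contrast that chose the genes, although it uses the same water arrays, and it was tested with limma. Between 3 and 9 h the log2 difference was 0.74 ± 0.279 for AT3G53040, 0.60 ± 0.362 for AT3G17520 and 0.45 ± 0.294 for LEA4-5 (SE). For LTI30 it was 0.19 ± 0.334 (-0.06 without water array B at 9 h) and for COR47 -0.40 ± 0.468. None of the 5 passed (adjusted p = 0.9998 for each), and 1 of them, AT3G53040, had an unadjusted p under 0.05 (0.0223 in limma's moderated test, before adjustment over all probe sets). In this comparison 0% of all probe sets passed, and 326 had an unadjusted p under 0.05. Between 3 and 6 h in water 0 of the 5 genes and 0% of all probe sets passed, with 291 probe sets at an unadjusted p under 0.05. COR47 had a difference of -0.74 ± 0.468 over that interval and AT3G17520 one of 0.32 ± 0.362. The differences of the 5 genes over time in water were therefore not detectable against the spread of these arrays, which does not show that they were absent. The 326 and 291 are each a smaller share of the 15766 probe sets than the threshold of 0.05 would pass with no change.

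The rest of the LEA family was tested on gibberellin against water. A list of 51 LEA loci and their groups, written by locus from general knowledge of the family and not from the annotation, holds 35 with a probe set of their own, and 30 remain besides the 5 genes. Of these 30, 22 were bright enough to be tested. The 5 genes were taken out of the family because of how they differed, so the remainder leans towards smaller differences.

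At 9 h 1 of the 22 rose and 2 fell, where 3.79% of all probe sets rose and 3.69% fell. AT2G46140, annotated as LEA27, rose: its water signals at 9 h were 177 (A) and 169 (B), and its gibberellin signals 379 and 445. The log2 change was 1.25 ± 0.164 (SE; adjusted p = 0.0015). Its 6 gibberellin arrays lay between 280 and 445 and its 6 water arrays between 156 and 177, without overlap at any time. AT4G21020 fell from 1198 and 1228 in water to 527 and 559 in gibberellin, a log2 change of -1.16 ± 0.235 (adjusted p = 0.013). AT1G72100 fell from 689 and 770 to 316 and 320 (-1.19 ± 0.329, adjusted p = 0.0495). The last call was lost with no filter on low signals (adjusted p = 0.054), with median centring (adjusted p = 0.061) and without an intensity trend (adjusted p = 0.126). Leaving out any 1 of the 4 arrays at 9 h left 0 of the 22 called lower, while the difference stayed between -1.20 and -1.12 for AT4G21020 and between -1.27 and -1.11 for AT1G72100.

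Across the 22 genes at 9 h, 16 differences were below 0 and 6 above, with a median of -0.54 where that of all probe sets was -0.0011. Of the 4 brightest of these genes that did not pass, LEA18, the dehydrin LEA (AT2G21490) and M10 had differences of -1.1 ± 0.393 (adjusted p = 0.119), -1.20 ± 0.508 (adjusted p = 0.192) and -0.95 ± 0.484 (adjusted p = 0.28). AT3G15670 had one of -0.38 ± 0.503 (adjusted p = 0.738). Both genes that fell belong to the LEA_4 group, a different group from the LEA_1 genes above, in which 2 of 8 tested genes fell, 0 rose and the median was -0.79. The A and B signals of the dehydrin LEA at 9 h were 2549 and 2932 in water and 920 and 1548 in gibberellin. Of the 4 tested dehydrins besides COR47 and LTI30, 0 passed, and 2 differences lay above 0 and 2 below, from -1.20 to 0.99. The 2 above 0 were those of AT4G38410 (0.99 ± 0.949) and AT1G54410 (0.14 ± 0.299). AT4G38410 had signals from 1.84 to 25.6 over the 12 arrays, around the filter signal of 16. With the signal ceiling of the arrays as a block, 1 of the 22 rose and 8 fell at 9 h. With the letter as a block 1 rose and 10 fell, although the labels do not say that a letter marks a shared batch. Over all probe sets the calls at 9 h, in both directions together, were 1178 in the main fit. They were 1996 with the ceiling block and 2691 with the letter block.

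**Figure D3:**
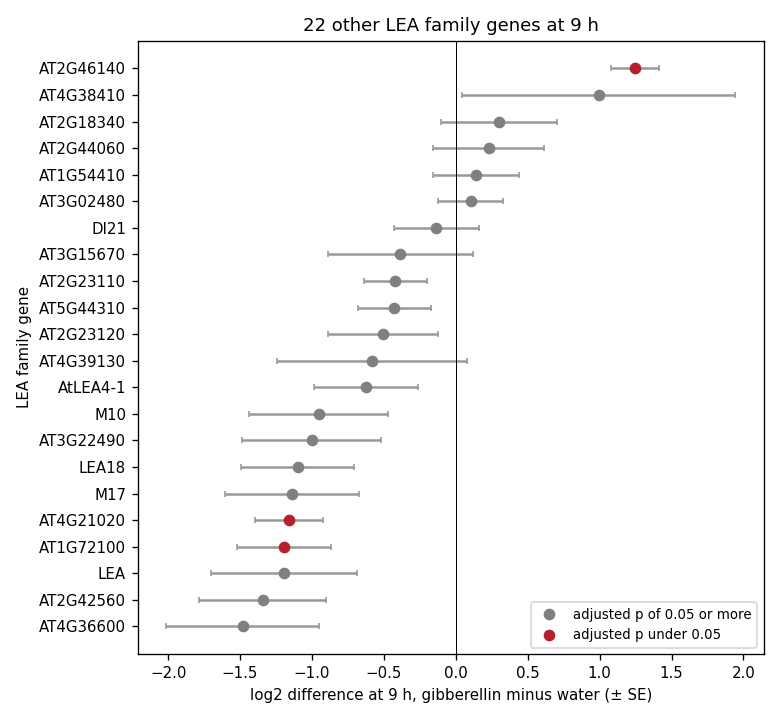
log2 difference at 9 h between gibberellin and water for the 22 tested LEA family genes other than the 5, with bars of 1 SE from the model; red points have an adjusted p under 0.05. One gene (AT2G46140, 1.25) is called higher, AT4G21020 (-1.16) and AT1G72100 (-1.19) are called lower, and 16 of the 22 points lie below 0.

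At 6 h AT2G46140 was the only one of the 22 to pass, with a rise of 1.07 ± 0.164 (adjusted p = 0.0081), and on the B arrays alone, the only ones of the high ceiling at 6 h, the difference was 1.06. Of all probe sets 0.913% rose and 0.565% fell at that time. At 3 h 0 of the 22 passed with limma, and 0.228% of all probe sets passed. An unadjusted p under 0.05 was found for 1 of the 22 and for 829 of the 15766 probe sets. Averaged over the 3 times, AT2G46140 rose by 1.03 ± 0.0949 (adjusted p = 5.91e-05), where 5.99% of all probe sets rose. In the same average AT4G21020 changed by -0.70 ± 0.136 (adjusted p = 0.0067), where 5.65% of all fell. The difference between the effects at 9 and 3 h passed for 0 of the 22 with limma, and for 0.0127% of all probe sets. Here 2 of the 22 and 1074 of the 15766 probe sets had an unadjusted p under 0.05. In water 0 of the 22 passed between 3 and 9 h, and 17 of their 22 differences were above 0. Their median was 0.14, where that of all probe sets was -0.0062. The 22 differences come from the same arrays and are not independent of each other.

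The cold-regulated genes COR15A and COR15B, whose products protect chloroplast membranes in the cold, stayed near the floor of the array. COR15A had signals from 0.954 to 10.6 over the 12 arrays and COR15B from 3.84 to 19.4, and both were left out of the tests, as were 6 more of the 30. COR47 is known to be induced together with these genes by cold in leaves, and in these seeds it was above the filter on all 12 arrays. ERD10 and XERO1, the dehydrin genes next to COR47 and LTI30 on their chromosomes, were not analysed here, as the annotation gives neither a probe set of its own. Of 26 regulators and partners listed for the pathway, 1 could be read, the bZIP gene EEL (AT2G41070), known to act on the LEA gene EM1 in the seed. Its signals at 9 h were 124 and 128 in water and 43.0 and 49.3 in gibberellin, with A first. EEL fell, with a log2 change of -1.45 ± 0.239 (adjusted p = 0.0046), and without the water array B at 9 h it did not pass.

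The A and B arrays differed in the LEA transcripts, a comparison made after the values had been seen. LTI30 and LEA4-5 were higher on the B array in 6 of 6 groups, and AT3G53040 and AT3G17520 in 5 of 6, the exception being gibberellin at 9 h for both. COR47 was higher on the A array in 6 of 6. With the letter as a term beside the 6 group means, the log2 difference B minus A was 0.51 ± 0.113 for LTI30 (adjusted p = 0.0063), 0.44 ± 0.0903 for LEA4-5 (adjusted p = 0.0035) and 0.50 ± 0.127 for AT3G17520 (adjusted p = 0.0138). It was 0.29 ± 0.121 for AT3G53040 (adjusted p = 0.127) and -0.67 ± 0.171 for COR47 (adjusted p = 0.0146). Among the 22 other LEA genes, 14 were called higher on B and 0 lower (1 with log2 of the signal + 16), and 20 differences were above 0 with a median of 0.58. Of all probe sets 6.17% were called higher on B and 8.96% lower, and the median was -0.0374. That split depended on the scaling: 973 probe sets were higher on B and 1412 lower as deposited, and 1129 higher and 865 lower after median centring. COR47 stayed at -0.59 and LTI30 at 0.58 under that centring, and 21 of the 22 LEA differences were above 0.

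M10 had the smallest adjusted p of this comparison among the family (0.86 ± 0.0987, adjusted p = 5.16e-05), and AT3G15670, higher on B in 6 of 6 groups, differed by 0.88 ± 0.107 (adjusted p = 7.65e-05). With the signal ceiling as a second term, which leaves the 9 h arrays to carry the letter, 1 of the 22 was called higher and 0 of the 5 genes passed. The difference was then 0.53 for LTI30, 0.39 for LEA4-5 and -0.47 for COR47, and 17 of the 22 were still higher on B. Without an intensity trend, which leaves the differences as they are, 7 of the 22 and 0 of the 5 genes passed. At 9 h, where all arrays have the high ceiling, 15 of the 22 in water and 18 of the 22 in gibberellin were higher on B. Of all probe sets, 46.1% in water and 51.8% in gibberellin were higher on B at that time. For the older Actin control set, signal at the 3' end over that at the 5' end, a measure of RNA integrity, ran from 4.88 to 7.13 on the A arrays and from 6.68 to 10.2 on the B arrays. That of ubiquitin ran from 1.27 to 1.77 and from 1.69 to 3.13. Between treatments the same 2 ratios overlapped, with medians of 7.07 in water and 6.91 in gibberellin for Actin and 1.88 and 1.71 for ubiquitin. The part of RNA integrity or of the array ceiling in the LEA difference between letters was not tested.

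**Figure D4:**
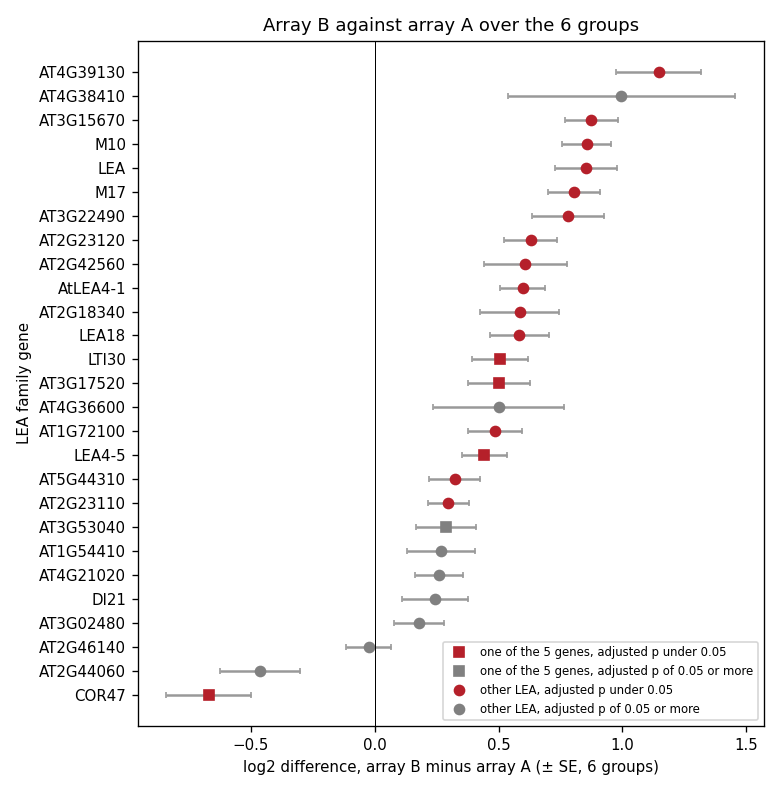
log2 difference of array B minus array A, fitted over the 6 groups, for the 5 genes (squares) and the 22 other tested LEA genes (circles), with bars of 1 SE; red marks have an adjusted p under 0.05. COR47 (-0.67) lies at the lower end and 24 of the 27 genes lie above 0.

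The genes most like each of the 5 in their log2 signals over the 12 arrays were listed among 8853 other probe sets that name 1 gene. Such values share the treatment and the letter, and they are a description. For COR47 they were AT5G45670 (Pearson r = 0.98), scpl20 (0.98), a serine carboxypeptidase-like gene, and SPT (0.98), the bHLH gene SPATULA. For LEA4-5 they were AT1G02700 (0.92), AtLEA4-1 (0.92) and AT5G07330 (0.92), so another gene of the LEA_1 group stood among the closest 3. AT3G53040 and AT3G17520 were in each other's closest 3 (0.95), and AT1G72100, another LEA locus, was second for AT3G17520 (0.96). For AT3G17520 the first was AT2G41710 (0.96), and AT3G26580 (0.93) and AT4G36700 (0.93) followed for AT3G53040. For LTI30 they were AT5G18450 (0.95), AT4G17360 (0.91) and AT5G42470 (0.90), none of them a gene of the LEA list. Between the 2 dehydrins r was -0.55, and between COR47 and AT3G17520 it was -0.90 over the same 12 arrays.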

How the data were processed

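Per the submitters' processing notes the authors used MAS5, and what they deposited is 1 linear intensity per probe set and array; version and scaling settings are not given in the sources used. The trimmed mean was 100 on every array, so the authors' values were taken to log2 as deposited. Such scaling removes a change in total RNA per seed. Gene names came from the platform annotation and were matched to the RefSeq table of TAIR10.1 (13436 of 13513 probe sets with 1 gene); no sequence or coordinate was used.

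After 64 control probe sets were left out, those above the 40th percentile of log2 signals on at least 2 arrays were kept (69.3%). limma 3.58.1 in R 4.3.3 fitted 6 group means to 12 arrays with an intensity trend (6 residual and 5.53 prior degrees of freedom). P-values are two-sided, adjusted by Benjamini-Hochberg over 15766 probe sets, threshold 0.05. The procedure was tested on simulated data. Group assignment came from the treatment and time in the labels. The 5 genes and the lists were chosen with earlier results of these data known. The rule for named genes took the 5 genes, each other LEA or partner gene that passed, the 4 brightest others and the 3 genes most like each of the 5. Added without that rule, after their values were seen, were COR15A and COR15B. Alternatives were another offset, filter, scaling and variance model, a letter or ceiling block, and leaving out each array.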

Additional observations from a re-analysis of the deposited data

Results flagged for a closer look

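LTI30 moved in opposite directions at 3 and 9 h: on both letters gibberellin was above water at 3 h and below it at 9 h, and the difference at 9 h minus that at 3 h was -2.04 on the log2 scale (SE 0.472). The difference was not tested, because the contrast chose the gene.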

How the results depend on the processing

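In the 20 other fits the difference at 9 h lay between 2.54 and 3.29 for COR47 and between -2.25 and -1.75 for AT3G53040. At 9 h the gibberellin and water arrays of the 5 genes did not overlap. No sign could therefore turn when 1 array was left out, and nothing is read from the signs. Leaving out 1 array in turn, which assumes that the lone array of a group varies like the others, gave 15 to 31 calls at 3 h over all probe sets (36 in all arrays), 67 to 300 at 6 h (233), 256 to 1268 at 9 h (1178), 1125 to 1905 for the average (1834) and 1 to 46 for the effect at 9 h minus at 3 h (2). For the 22 other LEA genes it gave 0 to 1 higher at 6 h, 0 to 2 lower at 9 h, 1 to 2 higher and 1 to 3 lower for the average, and 10 to 15 higher and 0 to 1 lower on array B. EEL was called at 9 h in 11 of these 12 fits.

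Without an intensity trend the calls over all probe sets were 6, 81 and 639 at 3, 6 and 9 h and 1 for the change of effect. Of the other LEA genes 1 then fell at 9 h and 7 were higher on B. No filter or median centring left 1 lower at 9 h. Quantile normalization gave 3 lower for the average and 1 call for the change of effect, and log2 of the signal + 16 gave 4 such calls and 1 LEA gene lower on B. With the signal ceiling as a block the calls were 66, 505 and 1996, and 40 for the change of effect; of the LEA genes 8 fell at 9 h, and 2 rose and 7 fell for the average. As a second term beside the letter it left 1 higher on B. Within the 8 arrays of the high ceiling, where 3 and 6 h keep only the B array of each group and the 9 h arrays alone supply the spread, there were 6 calls at 3 h, 67 at 6 h, 560 for the average and 4 for the change of effect, with 0 LEA genes higher at 6 h and 6 lower at 9 h. The last alternatives were chosen after seeing the data. The causes were not tested. Median centring moved the median of all probe sets by -0.12 for the change of effect, and by under 0.1 for the other comparisons.

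The labels do not say that a letter marks a shared batch. The A minus B differences of 2 groups correlated between 0.077 and 0.275, over 0.1 in 14 of 15 pairs of groups. Between water and gibberellin of the same time the correlation was 0.275, 0.169 and 0.103 at 3, 6 and 9 h. The pair under 0.1 was water at 9 h with gibberellin at 6 h, which no single-time comparison sets against each other. Since 1 pair of groups lay under 0.1 the fit without the block was kept, so the letter differences remain in its errors. The fit with the letter as a replicate block gave 110, 857 and 2691 calls at 3, 6 and 9 h, 3446 for the average, 163 for the change of effect and 2 between 3 and 9 h in water. Of the 22 LEA genes 1 rose at 3 h, 2 rose at 6 h, 10 fell at 9 h, and 2 rose and 6 fell for the average.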
